A study of Arabidopsis thaliana with 24 samples.

Results

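The plastid genome of Arabidopsis thaliana carries genes for the core subunits of the thylakoid complexes, and 44 of them were followed here across seedlings and young plants. They are all the genes annotated to the plastid genome whose symbol starts with psa, psb, pet, atp, rbc or ndh. Each was measured by 1 probe set, so that 44 of the 22746 probe sets of the array other than controls were examined, among 77 annotated to plastid genes. The genes fall into photosystem I (5 genes), photosystem II (15), the cytochrome b6f complex (6), the ATP synthase (6), the NADH dehydrogenase-like (NDH) complex (11) and the large subunit of Rubisco (1). All 44 passed the filter on low values, and ndhB, which lies in 2 copies on the plastid genome, was counted once.

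RNA from accession Col-0 grown in continuous light was labelled with biotin and hybridised to 24 one-colour arrays, in 8 sets of 3 named by the numbers of their labels. Set ATGE_7 came from the green part of seedlings that grew on soil, at 23 °C with 65% relative humidity. Sets ATGE_22, ATGE_23 and ATGE_24 were whole plants on soil at the same temperature and humidity, taken when past the transition but before bolting. The labels of these 3 sets are the same and name developmental drift, so only the set number tells them apart. Sets ATGE_96 and ATGE_100 held the green parts of seedlings kept at 20 °C, on a medium labelled 0.5x GM, and sets ATGE_97 and ATGE_101 had the same medium with 5% sucrose. For sets ATGE_96 and ATGE_97 the labels add that most resembled 7-day-old plants of ATGE_7 in appearance. Soil and medium sets also differed in temperature, and the effects of substrate and temperature cannot be told apart. The labels do not say that the 3 arrays of a set came from separate cultures, so the p-values measure only the spread between these samples. In bulk tissue, fewer green cells and less plastid RNA in each cell cannot be told apart.

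The proteins encoded by these genes sit at the centre of the light reactions. Photosystem II splits water, the cytochrome b6f complex passes the electrons on to photosystem I, and the ATP synthase uses the proton gradient that builds up. The NDH complex returns electrons from ferredoxin to the plastoquinone pool in cyclic electron flow around photosystem I. Most of these genes stand in clusters that are read into long RNAs, which are then cut, edited and stabilised by proteins made in the nucleus. They are transcribed mainly by the plastid's own bacterial-type RNA polymerase, which nuclear sigma factors guide to its promoters, while a phage-type polymerase from the nucleus reads other plastid genes.

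The values are intensities on a linear scale, already brought to a common trimmed mean by the authors. The level of a probe set depends on its own sequence as well as on its transcript, so levels were compared between sets for the same gene and never between genes. The median intensity of an array lay between 35.2 and 43.0, while the highest intensity ranged from 3240 to 7373. This upper end differed between groups: it was 5655 to 6741 in soil seedlings, 5744 to 7373 in soil plants, 4273 to 5075 in sets ATGE_96 and ATGE_97 and 3240 to 4600 in sets ATGE_100 and ATGE_101. The 44 genes supplied 2.73% to 2.89% of the summed intensity in soil seedlings, 2.44% to 2.86% in soil plants and 1.57% to 2.40% on medium. Array A of set ATGE_100 stood apart, with the lowest highest value (3240), the lowest share (1.57%) and the lowest spike-in signal (bioB, 29.2 against 38.5 to 134 on all other arrays). The spike-in signal also differed between groups, at 105 to 134 in soil seedlings and 77.0 to 117 in soil plants. It was 58.0 to 86.1 in sets ATGE_96 and ATGE_97 and 29.2 to 78.0 in ATGE_100 and ATGE_101. Its part in the comparisons below was not tested. RCA (AT2G39730), Rubisco activase and the 1 green leaf marker of 8 with a probe set of its own, stood between 3048 and 4762 in the set means. Of 8 root markers 2 had a probe set of their own: EXPA7 (AT1G12560), a root hair expansin, was near the floor of the arrays at set means of 5.24 to 10.9, whereas PYK10 (AT3G09260), a beta-glucosidase of roots and hypocotyls, had set means of 747 in soil seedlings, 12.6 to 34.4 in soil plants and 1000.3 to 2644 on medium. Its part in the results below was not tested, and the fixed marker lists for dividing, floral and dark-grown tissue had no gene with a probe set of its own.

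**Figure D1:**
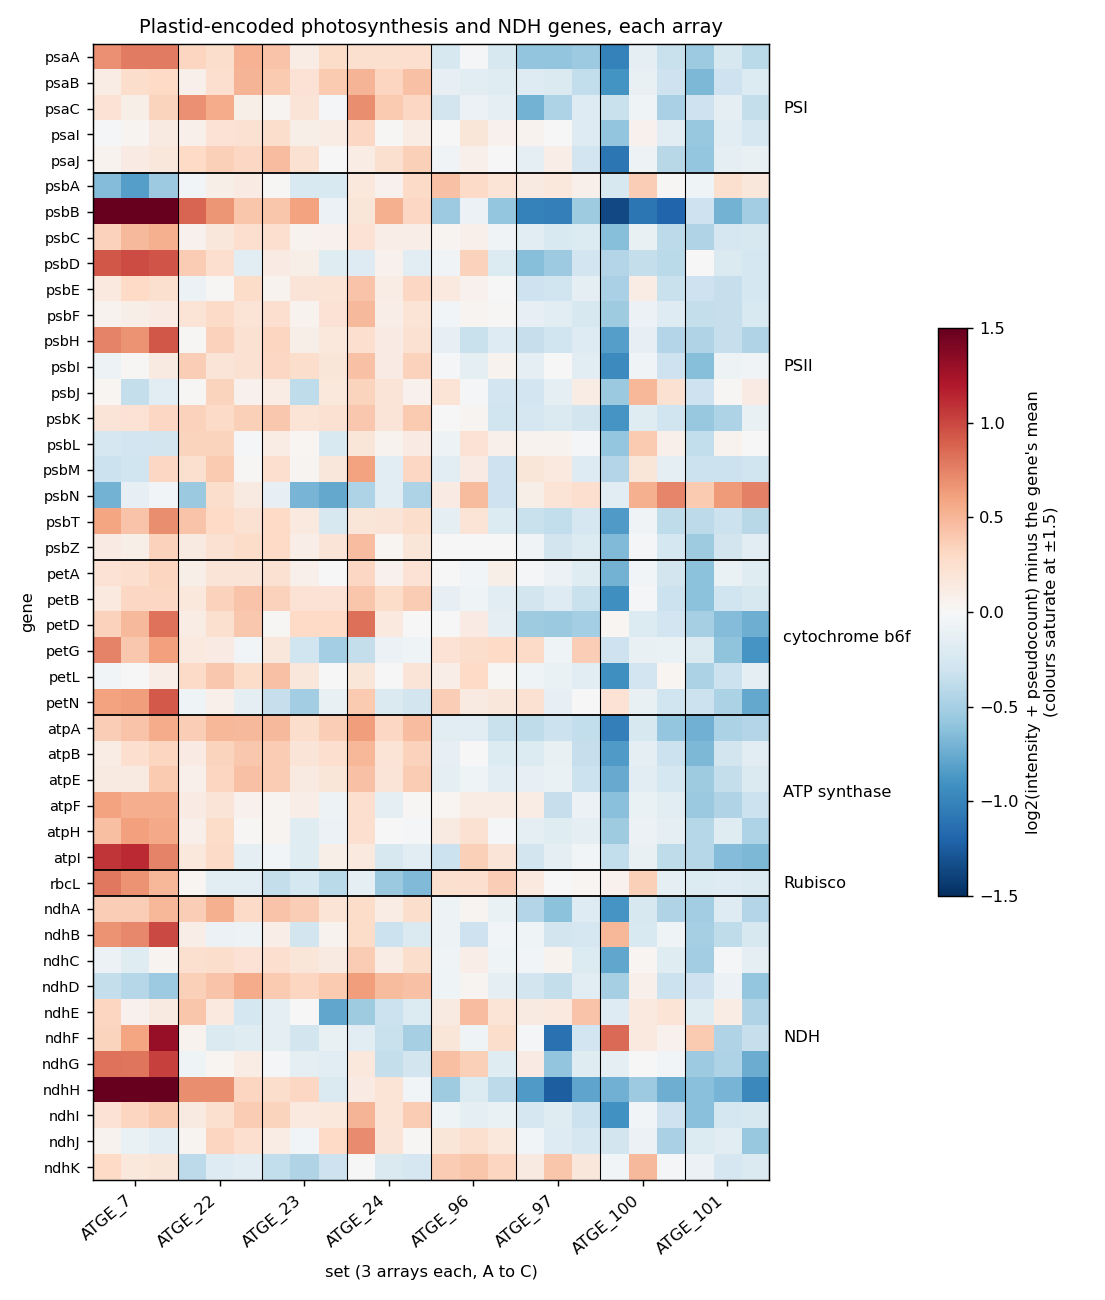
Heat map of the 44 genes (rows, grouped by complex) on the 24 arrays (columns, 3 per set). Colour gives log2(intensity + pseudocount) minus the gene's mean over all arrays, red for above and blue for below, saturating at ±1.5; psbB and ndhH are darkest in ATGE_7, psbA and ndhD are blue there, and array A of ATGE_100 is the bluest column of the medium sets.

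Most of these genes were called in a test for any difference among the 8 sets, as were most probe sets on the array. A call here means an adjusted p under 0.05, with Benjamini-Hochberg adjustment across the 15471 probe sets tested. limma's moderated F test called 41 of the 44 genes, against 89.9% of all probe sets tested, so the count is close to the background. After quantile normalization it called 32 of the 44, against 89.6% of all probe sets tested. The 3 genes without a call, psbJ, psbL and psbM, code for small subunits of photosystem II. Within the complexes the smallest p belonged to psaA (adjusted p = 2.01e-07), psbB (3.95e-11), petD (4.19e-06), atpA (3.72e-08) and ndhH (4.55e-12), and rbcL had 9.42e-07. The highest set mean fell in the soil seedlings for 19 genes and in plant set ATGE_24 for 17. The lowest fell in a medium set for 36 genes, in ATGE_100 for 17, in ATGE_101 for 14 and in ATGE_97 for 5. The highest and lowest sets were not counted over all probe sets. These counts therefore do not set the 44 genes apart from the rest of the array.

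In the values as deposited, complexes followed different courses through the sets. The level of a complex is given here as the median over its genes of the centred log2 intensity, as mean ± SD over 3 arrays. Photosystem I was at 0.18 ± 0.11 in soil seedlings and 0.29 ± 0.02, 0.23 ± 0.14 and 0.29 ± 0.04 in the plant sets, values whose arrays overlapped. On medium it lay lower, at -0.10 ± 0.07 in ATGE_96, -0.23 ± 0.05 in ATGE_97, -0.44 ± 0.42 in ATGE_100 and -0.33 ± 0.22 in ATGE_101. Photosystem II took the same course, with 0.18 ± 0.12 in soil seedlings and 0.24 ± 0.04, 0.16 ± 0.08 and 0.19 ± 0.08 in plants. The ATP synthase, by contrast, stood highest in soil seedlings at 0.48 ± 0.07, above every plant array (0.22 ± 0.09, 0.16 ± 0.05 and 0.21 ± 0.13) and above every medium array. NDH genes showed a similar order, from 0.35 ± 0.04 in soil seedlings through 0.20 ± 0.06, 0.06 ± 0.05 and 0.11 ± 0.16 in plants to -0.39 ± 0.13 in ATGE_101. The cytochrome b6f genes went from 0.37 ± 0.09 in soil seedlings to -0.46 ± 0.05 in ATGE_101. The arrays of ATGE_97, ATGE_100 and ATGE_101 overlapped with each other in photosystem I, and array A of ATGE_100 (-0.90) was the lowest of all. These medians stand for genes that did not always move together, as the single genes show. They also depended on the scaling. From ATGE_7 to ATGE_96 the median log2 difference was -0.38 in photosystem I as deposited and -0.07 after quantile normalization. In the same order it was -0.16 and 0.13 in photosystem II, -0.35 and -0.24 in cytochrome b6f, -0.46 and -0.22 in the ATP synthase and -0.41 and -0.13 in NDH.

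**Figure D2:**
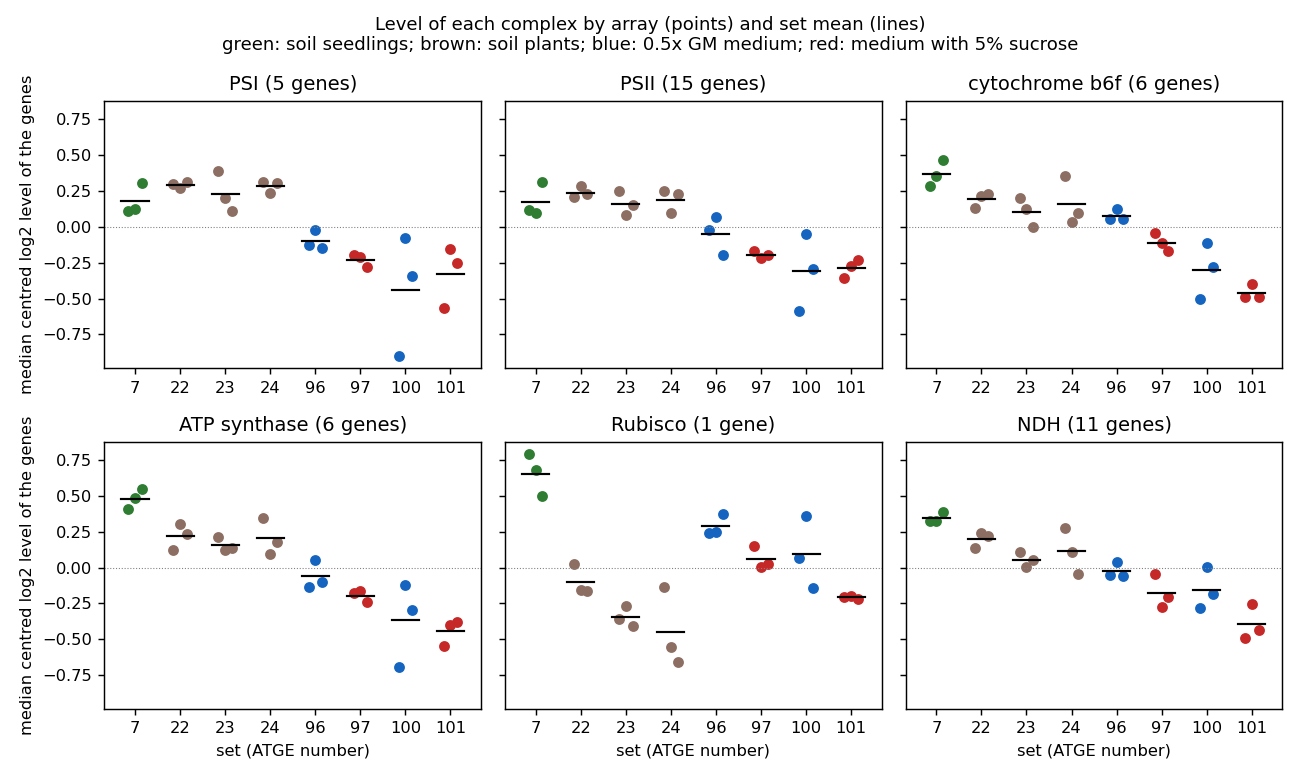
Level of each complex on each array (points) and set mean (black lines), as the median over the genes of log2(intensity + pseudocount) minus the gene's mean over all arrays; rbcL is the single Rubisco gene. In these values as deposited, soil sets lie above the medium sets for photosystem I, and for rbcL the means of the plant sets lie below those of ATGE_96 and ATGE_97.

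Seedlings on medium were set against the seedlings on soil that they were said to resemble, ATGE_96 against ATGE_7. Of the 44 genes 25 were lower on medium and 2 higher, where 40.4% of all probe sets tested were lower and 30.4% higher. Differences are given on the log2 scale as first set minus second, ± standard error, with limma's adjusted p. The median of the 44 was -0.36, against -0.12 over all probe sets. After quantile normalization, which gives all arrays the same distribution of intensities, these medians were -0.11 and -0.11, with 26 of 44 estimates below 0 and a photosystem II median of 0.13. A member of every complex was lower: 3 of 5 in photosystem I, 6 of 15 in photosystem II, 3 of 6 in cytochrome b6f, 6 of 6 in the ATP synthase, 6 of 11 in NDH, and rbcL. Without array C of ATGE_7 the count of calls fell from 27 to 18. With quantile normalization 14 genes were lower and 3 higher, and 16 of the 27 calls were shared. Of the ATP synthase genes atpA and atpI kept their calls there. Of the 18 plastid genes with a mean intensity over 2000, 11 were lower and 1 higher with a median of -0.34, and other probe sets of that brightness had a median of -0.27 with 49.6% lower. The part of brightness in the difference was not tested beyond this. The 3' to 5' signal ratios of control probe sets, a sign of RNA quality and labelling, differed here as well. For GAPDH they were 1.28 to 1.55 in ATGE_96 and 0.90 to 0.98 in ATGE_7. For ubiquitin they were 2.22 to 2.66 and 3.67 to 4.35, while those of actin overlapped. Their part was not tested.

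The soil plants were compared with the soil seedlings, with which they shared substrate, temperature and humidity. The seedling set held green parts and the plant sets whole plants, so harvested part and stage cannot be told apart. Of the 44 genes 18 were lower in the plants and 5 higher, where 31.9% of all probe sets tested were lower and 33.3% higher. The median difference was -0.05, against 0.01 over all probe sets. The actin 3' to 5' ratio was 5.36 to 6.59 in the soil seedlings and 7.37 to 11.51 in the plants. That of GAPDH was 0.90 to 0.98 and 1.12 to 2.81, while those of ubiquitin overlapped. The part of these ratios in this comparison was not tested. Photosystem I had 1 lower gene of 5, photosystem II 5 lower and 2 higher of 15, cytochrome b6f 2 lower of 6, the ATP synthase 3 lower of 6 and NDH 6 lower and 3 higher of 11. Quantile normalization left 18 lower and 6 higher, sharing 21 calls, and scaling to a common 75th percentile left 19 lower and 2 higher.

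Seedlings of the medium set ATGE_100 were compared with the 3 plant sets together. Harvested part, stage, substrate and temperature all differed here and cannot be told apart. Here 30 genes were lower in the seedlings and 4 higher, where 34% of all probe sets tested were lower and 27.9% higher. The median was -0.50, against -0.04 over all probe sets. All 5 photosystem I genes and 5 of 6 ATP synthase genes were lower, with 10 of 15 in photosystem II, 4 of 6 in cytochrome b6f and 6 of 11 in NDH. The difference moved with the brightness of the probe sets. Among probe sets of other than plastid genes with a mean intensity over 2000, 83% were lower with a median of -0.59, while those under 100 had a median of -0.01. Of the 18 plastid genes over 2000, 16 were lower with a median of -0.67, and of the other 26, 14 were lower and 4 higher with a median of -0.38. After quantile normalization the medians were -0.11 and -0.19, and 20 genes were lower and 5 higher, of which 23 calls were shared with the values as deposited. The split at 2000 was chosen after the values were seen. The actin 3' to 5' ratio was 3.10 to 4.51 in ATGE_100 and 7.37 to 11.51 in the plants. That of ubiquitin was 1.79 to 2.76 and 2.88 to 4.11, while those of GAPDH overlapped. The part of these ratios was not tested.

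**Figure D3:**
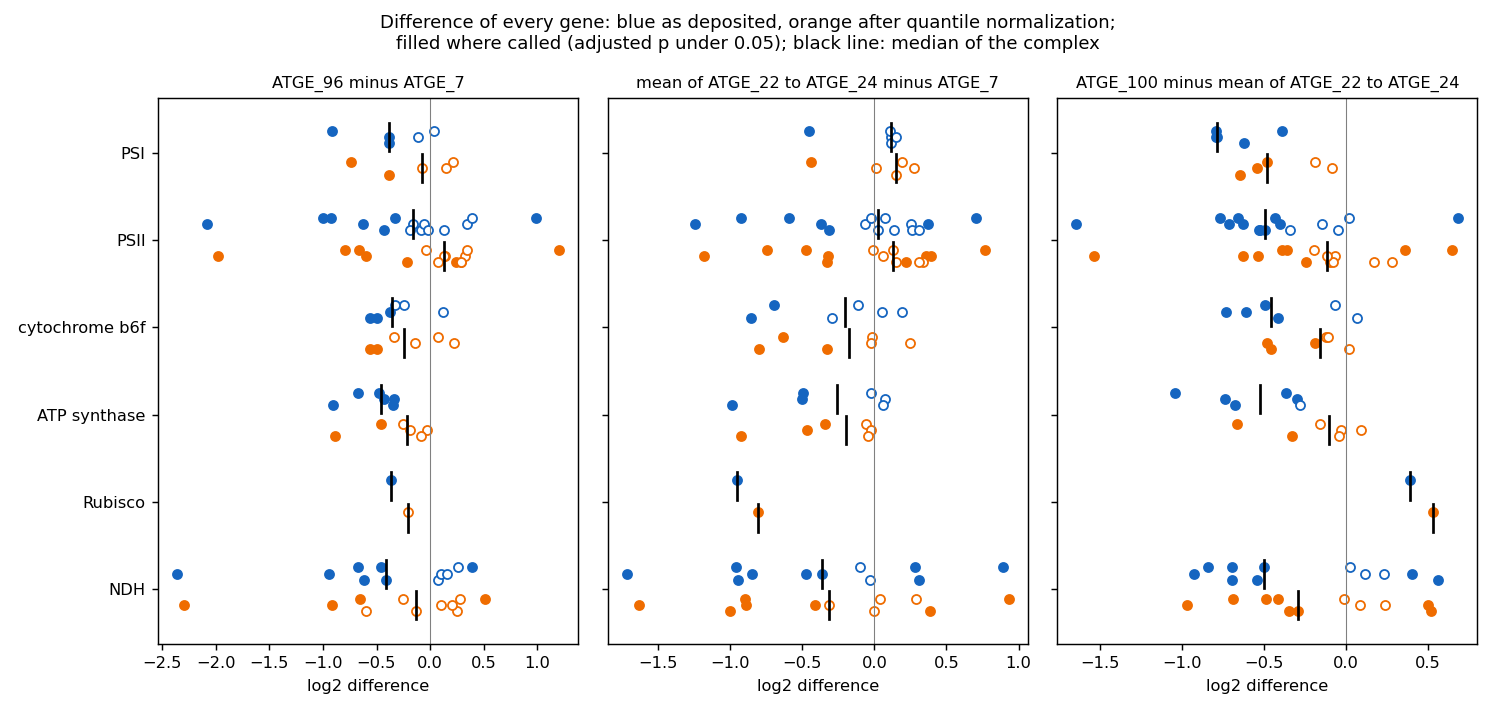
Log2 difference of every gene (points) in 3 comparisons, by complex: blue as deposited, orange after quantile normalization, filled where limma's adjusted p was under 0.05, with the median of each complex as a black line. The lowest points are ndhH and psbB in the left and middle panels and psbB and atpA in the right one, where the medians of photosystem I and the ATP synthase move from -0.78 and -0.52 to -0.48 and -0.10.

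Genes of photosystem II moved in opposite directions. psbB (ArthCp049), coding for the inner antenna protein CP47, had intensities of 4284, 4466 and 4356 in soil seedlings and 936, 1285 and 909.9 in ATGE_96. It lay between 1284 and 2503, with a median of 1829 over the 9 plant arrays. The seedlings on soil were above every other array of the study, with no overlap. In ATGE_96 psbB was 4.22-fold lower than on soil (log2 difference -2.08 ± 0.17, adjusted p = 8.92e-10), and in the plants 2.36-fold lower (-1.24 ± 0.14, adjusted p = 1.53e-07). Set ATGE_100, at 532, 637 and 594, was in turn 3.12-fold below the plants (-1.64 ± 0.14, adjusted p = 2.49e-09). Quantile normalization left these at -1.97, -1.18 and -1.53.

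psbA (ArthCp002), the gene of the D1 protein that turns over fastest in the light, went the other way. Its intensities were 1385, 1224 and 1486 in soil seedlings, 2959, 2656 and 2501 in ATGE_96 and between 1858 and 2657, with a median of 2284 in plants. All plant and all ATGE_96 arrays were above all soil seedling arrays. The log2 differences were 0.98 ± 0.13, adjusted p = 5.61e-07 for medium against soil seedlings and 0.70 ± 0.10, adjusted p = 4.69e-06 for plants against soil seedlings. No call separated ATGE_100, at 1845, 2823 and 2195, from the plants (0.02 ± 0.10, adjusted p = 0.87), although psbA was called higher there after quantile normalization (0.36; adjusted p from 0.000183 to 0.973 over all alternatives).

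psbD (ArthCp017), coding for the D2 partner of D1, fell with psbB rather than rising with psbA. It stood at 3096, 3198 and 3113 in soil seedlings, 1564, 2052 and 1399.7 in ATGE_96 and between 1415 and 2104, with a median of 1698 in plants, without overlap between soil seedlings and the rest. The differences were -0.92 ± 0.14, adjusted p = 6.53e-06 on medium and -0.93 ± 0.12, adjusted p = 5.5e-07 in plants. psbH (ArthCp052), a small phosphoprotein subunit, went from 3288, 3142 and 3743 in soil seedlings to 1794, 1556 and 1710.0 in ATGE_96 (-1.0 ± 0.13, adjusted p = 6.04e-07) and to values between 1979.6 and 2499, with a median of 2294 in plants (-0.59 ± 0.11, adjusted p = 5.48e-05). psbC, the gene of the antenna protein CP43, was lower by less, with -0.43 on medium and -0.31 in plants. psbT, a small subunit, had differences of -0.63 and -0.37, and psbK was lower on medium (-0.33 ± 0.14, adjusted p = 0.0436) and not called in plants (0.07).

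psbL (ArthCp037), a small subunit near the quinone site, was called higher in plants. Its values were 464, 451 and 457 in soil seedlings and between 470.1 and 699, with a median of 599 in plants, which do not overlap (0.37 ± 0.14, adjusted p = 0.0242). That call did not hold when any 1 array of ATGE_7 was left out, nor after scaling to a common 75th percentile (adjusted p from 0.00282 to 0.0704 over all alternatives). psbN (ArthCp051), whose product is needed to assemble photosystem II in tobacco, stood at 274, 446 and 512 in ATGE_100 against between 176 and 369, with a median of 219 in plants. These arrays overlapped, and psbN was called higher in ATGE_100 (0.69 ± 0.20, adjusted p = 0.00584), a call that did not pass without array C of that set (adjusted p from 9e-04 to 0.0703 over all alternatives). The cytochrome b559 genes psbE and psbF were not called between soil seedlings and either other group, and were lower in ATGE_100 than in plants (-0.40 and -0.49). psbI, psbK and psbZ, for small subunits, were also lower there (-0.71, -0.76 and -0.53), whereas psbJ and psbM had -0.04 and -0.34 with no call.

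In photosystem I the reaction centre genes parted. psaA (ArthCp022) read 3827, 4084 and 4057 in soil seedlings, 2006, 2335 and 2002 in ATGE_96 and between 2568 and 3418, with a median of 2857 in plants, and the soil seedlings were above all of these. psaA was lower on medium (-0.92 ± 0.15, adjusted p = 1.48e-05) and in plants (-0.45 ± 0.12, adjusted p = 0.00296), also after quantile normalization (-0.74 and -0.44). psaB (ArthCp021), its partner in the heterodimer and next to it on the genome, read 4682, 5210.0 and 5358 in soil seedlings, 3983, 3853 and 3823 in ATGE_96 and between 4559 and 6178, with a median of 5683 in plants. The plants overlapped with the soil seedlings, and the difference there was 0.12 ± 0.13, adjusted p = 0.418. On medium psaB was called lower (-0.38 ± 0.15, adjusted p = 0.0312), a call lost after quantile normalization (-0.07) and in 5 of the 6 fits without 1 array (adjusted p from 0.00399 to 0.403 over all alternatives). In ATGE_100, at 1166, 2167 and 1872 for psaA and 2322, 4015 and 3509.7 for psaB, both were lower than in plants (-0.79 and -0.78). For psaB quantile normalization ended that call as well (-0.08; adjusted p from 3.08e-06 to 0.261 over all alternatives). psaC, the iron-sulphur subunit at the electron exit, was lower in ATGE_96 than in soil seedlings (-0.38) and in ATGE_100 than in plants (-0.62), and the small subunits psaI and psaJ in the latter (-0.39 and -0.79).

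In the cytochrome b6f complex the genes of the small subunits petN and petG were the ones called between soil plants and soil seedlings. petN (ArthCp015) read 353, 359 and 442 in soil seedlings, 297, 252 and 259.7 in ATGE_96 and between 158 and 304, with a median of 207 in plants, and was lower in both (-0.50 ± 0.17, adjusted p = 0.0121, and -0.85 ± 0.14, adjusted p = 1.5e-05). petG (ArthCp041) read 578, 454 and 526 in soil seedlings and between 237 and 385, with a median of 325 in plants, with no overlap (-0.69 ± 0.13, adjusted p = 0.00012), and was not called on medium (-0.33). petB (ArthCp053), the cytochrome b6 gene, read 3655, 4076 and 4091 in soil seedlings, 3016, 3148 and 2953 in ATGE_96, 1740.5, 3227 and 2629 in ATGE_100 and between 3675 and 4425, with a median of 4181 in plants. Soil seedlings and plants overlapped (0.05 ± 0.12, adjusted p = 0.724), while ATGE_96 was below soil seedlings (-0.37 ± 0.15, adjusted p = 0.0302) and ATGE_100 below plants (-0.73 ± 0.12, adjusted p = 2.19e-05). After quantile normalization these were -0.14 with no call and -0.19 with one. petD (ArthCp054), subunit IV and the neighbour of petB, read 127, 139.9 and 178 in soil seedlings and 97.3, 107 and 87.8 in ATGE_96, a fall of 0.56 on the log2 scale (adjusted p = 0.0039). Its plant arrays lay between 98.7 and 178, with a median of 117, with -0.29 ± 0.13, adjusted p = 0.0584 against soil seedlings. petA, for cytochrome f, and petL, for a small subunit, were not called against soil seedlings in either group and were lower in ATGE_100 than in plants (-0.49 and -0.61).

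In plants against soil seedlings the ATP synthase genes divided by the part of the enzyme they encode, whereas all 6 were lower in ATGE_96 than in soil seedlings. For the membrane part, atpI (ArthCp010) read 581, 601 and 462 in soil seedlings, 216, 352 and 312 in ATGE_96 and between 231 and 334, with a median of 265 in plants. Both groups were entirely below the soil seedlings (-0.91 ± 0.16, adjusted p = 2.67e-05, and -0.99 ± 0.13, adjusted p = 8.17e-07). atpF and atpH, also of the membrane part, were lower in plants (-0.50 and -0.50) and in ATGE_96 (-0.48 and -0.43), the latter not after quantile normalization. For the catalytic part, atpA (ArthCp007), the alpha subunit, read 3492, 3634 and 3967 in soil seedlings, between 3229.8 and 4166, with a median of 3725 in plants, 2415, 2397 and 2140.1 in ATGE_96 and 1326, 2287 and 1796 in ATGE_100. Plants and soil seedlings overlapped (-0.02 ± 0.11, adjusted p = 0.873), whereas both medium sets lay below (-0.67 ± 0.14, adjusted p = 0.000172, and -1.04 ± 0.11, adjusted p = 6.04e-08 against plants). atpB (ArthCp029), the beta subunit, read 4705, 5183 and 5481 in soil seedlings, 4000.4, 4345 and 3792 in ATGE_96, 2427, 3991 and 3486 in ATGE_100 and between 4757 and 6168, with a median of 5487 in plants. Its differences were 0.08 in plants with no call, -0.34 in ATGE_96 and -0.74 in ATGE_100 against plants, of which the latter pair became -0.03 and -0.03 with no call after quantile normalization. atpE, the epsilon subunit, gave 0.06, -0.34 and -0.68 in the same order. So in plants against soil seedlings 3 of 3 membrane genes were lower and 0 of 3 catalytic genes were called, a grouping made after the values were seen.

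rbcL (ArthCp030), the Rubisco large subunit, kept to its own order. It read 1603, 1478 and 1302 in soil seedlings, 1089.6, 1095 and 1195 in ATGE_96, 966, 1185 and 833 in ATGE_100 and between 580.2 and 937, with a median of 764 in plants. Plants and soil seedlings did not overlap, and rbcL was 1.94-fold lower in plants (-0.95 ± 0.10, adjusted p = 5.83e-08). It was lower on medium by less (-0.37 ± 0.13, adjusted p = 0.0125), a call lost after quantile normalization (-0.21) and without array A of ATGE_7 (adjusted p from 0.00672 to 0.148 over all alternatives). Unlike most of the other genes it was higher in ATGE_100 than in plants (0.39 ± 0.10, adjusted p = 0.00223), with overlapping arrays. Its set means ran from 1461 in ATGE_7 over 1126 in ATGE_96, 995 in ATGE_100 and 961 in ATGE_97 to 861 in ATGE_22, 796 in ATGE_101, 725 in ATGE_23 and 681 in ATGE_24. The arrays of ATGE_100 overlapped with those of ATGE_96, ATGE_97, ATGE_22 and ATGE_24, those of ATGE_24 also with ATGE_22, ATGE_101 and ATGE_23, and those of ATGE_22 with ATGE_97. Over the 8 set means the named genes most like rbcL were the plastid gene rpl20, for a ribosomal protein (Pearson r = 0.958), AGL87 (0.951) and CYTC6A (0.946), out of 8351 candidates. For psbA they were AT2G03690 (0.988), AT1G18160 (0.982) and AT1G32700 (0.978). These likenesses describe 8 points.

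**Figure D4:**
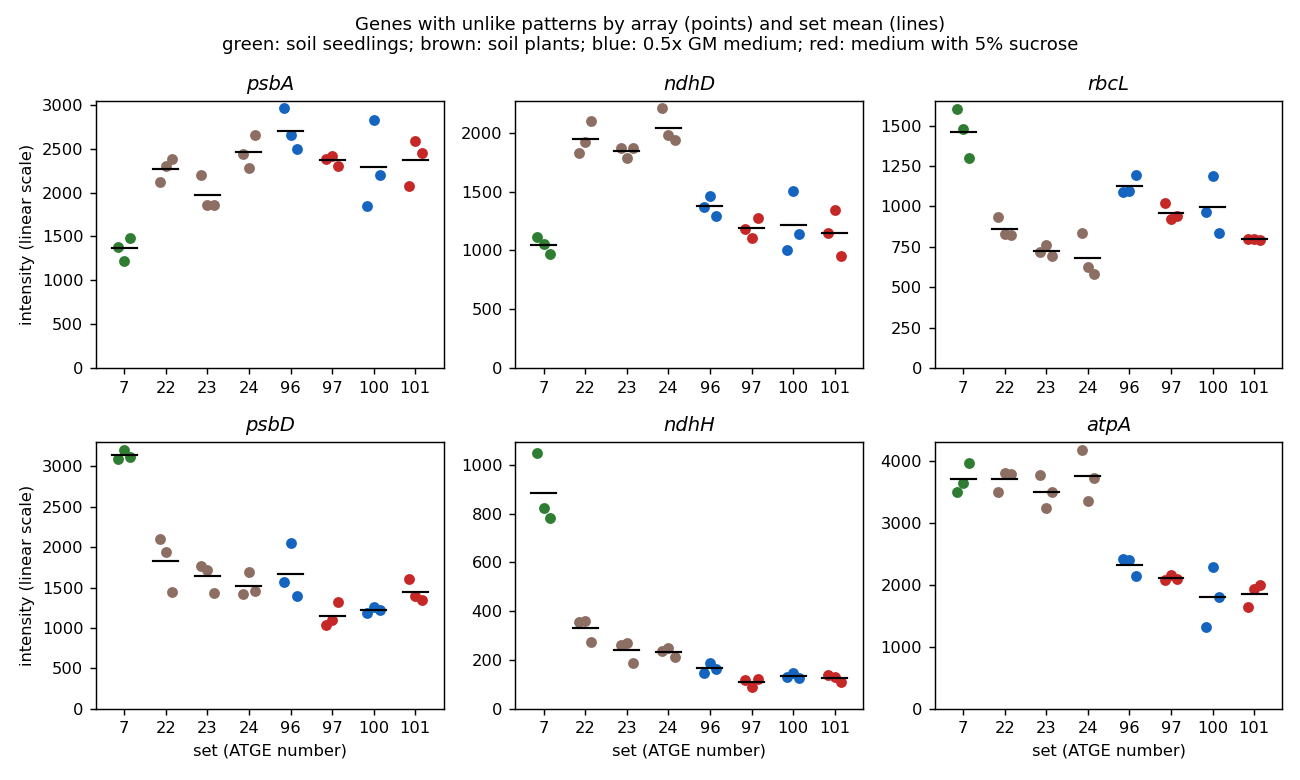
Intensity (linear scale, from 0) of 6 genes on each array (points) with set means (lines), by set. psbD and ndhH are highest in ATGE_7, psbA and ndhD lowest there, rbcL is highest in ATGE_7 and lowest in ATGE_24, and atpA separates soil from medium.

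NDH genes moved in both directions too. ndhH (ArthCp080), of the arm that faces the stroma, read 1048, 824 and 780.4 in soil seedlings, 148, 188 and 163 in ATGE_96 and between 186 and 358, with a median of 263 in plants. Every other array of the study was below the soil seedlings. ndhH was 5.12-fold lower on medium (-2.36 ± 0.16, adjusted p = 2.11e-11) and 3.29-fold lower in plants (-1.72 ± 0.13, adjusted p = 2.61e-10). At 129, 147 and 128, ATGE_100 was below all plant arrays too (-0.93 ± 0.13, adjusted p = 2.08e-06). ndhD (ArthCp074), a subunit of the membrane arm, read 1110.0, 1055 and 969.9 in soil seedlings, 1365, 1465 and 1294 in ATGE_96 and between 1788 and 2209, with a median of 1922 in plants. All plant arrays were above all seedling arrays of either substrate. ndhD was higher in plants (0.89 ± 0.10, adjusted p = 1.83e-07) and on medium (0.39 ± 0.13, adjusted p = 0.00885), and lower in ATGE_100 than in plants (-0.69 ± 0.10, adjusted p = 6.1e-06).

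Of other membrane arm genes, ndhB, ndhG and ndhF were lower in plants than in soil seedlings, ndhC was higher and ndhA was not called. ndhB (ArthCp086;ArthCp068), with its 2 gene copies, read 108, 112 and 135 in soil seedlings, 61.5, 50.9 and 62.7 in ATGE_96 and between 50.6 and 80.1, with a median of 61.1 in plants, with differences of -0.94 ± 0.17, adjusted p = 3.63e-05 and -0.85 ± 0.14, adjusted p = 1.42e-05. ndhG (ArthCp077) read 598, 597 and 697 in soil seedlings and between 262 and 379.6, with a median of 323 in plants, without overlap (-0.96 ± 0.14, adjusted p = 2.93e-06), and was lower on medium (-0.67 ± 0.17, adjusted p = 0.00128). ndhF (ArthCp071) was a dim probe set, at 53.2, 64.9 and 111 in soil seedlings, 47.2, 38.8 and 50.4 in ATGE_96, 79.1, 46.1 and 43.2 in ATGE_100 and between 27 and 42.5, with a median of 35.3 in plants. Its call in plants was -0.95 ± 0.22, adjusted p = 0.000755, that on medium (-0.62 ± 0.27, adjusted p = 0.0459) was lost in 8 of 15 alternatives (adjusted p from 0.0172 to 0.287 over all alternatives), and that of ATGE_100 above plants (0.56 ± 0.22, adjusted p = 0.0315) was lost without array A of ATGE_100 (adjusted p from 0.00561 to 0.283 over all alternatives). ndhC was higher in plants (0.31 ± 0.12, adjusted p = 0.0341), a call lost in 5 of 22 alternatives. Among the stromal arm genes, ndhK (ArthCp026) read 929, 841 and 856 in soil seedlings, between 551 and 758, with a median of 631 in plants and 734, 1055 and 743 in ATGE_100, lower in plants than in soil seedlings (-0.48 ± 0.10, adjusted p = 0.00021) and higher in ATGE_100 than in plants (0.40 ± 0.10, adjusted p = 0.00107). ndhI was lower on medium (-0.41, and -0.69 in ATGE_100 against plants) and ndhA, of the membrane arm, likewise (-0.46 and -0.84). The calls of ndhE (-0.36) and ndhJ (0.28) in plants against soil seedlings were each lost in 13 of 22 alternatives.

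The 2 pairs of medium sets asked whether sucrose changed these genes. In the first pair, 6 genes were lower in ATGE_97 than in ATGE_96 and 0 higher, where 12.1% of all probe sets tested were lower and 20.9% higher. The estimates were below 0 for 42 of 44 genes, with a median of -0.18 against 0.08 over all probe sets. After quantile normalization 34 of 44 were below 0, and the medians were -0.08 and 0.01. ndhH went from 148, 188 and 163 to 118, 88.2 and 123 (-0.58 ± 0.16, adjusted p = 0.00692), psbD from 1564, 2052 and 1399.7 to 1036, 1103 and 1322 (-0.52 ± 0.14, adjusted p = 0.00766) and petD from 97.3, 107 and 87.8 to 65.5, 64.2 and 66.8 (-0.52 ± 0.16, adjusted p = 0.0164). In each of these the sucrose arrays lay below all arrays without sucrose. psaA (-0.41 ± 0.15, adjusted p = 0.0432), psbE (-0.32 ± 0.12, adjusted p = 0.0472) and ndhA (-0.37 ± 0.13, adjusted p = 0.0406) were the other calls. Without array B of ATGE_96 the count fell from 6 to 1, which left ndhH, and without array B of ATGE_97 it fell to 2.

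In the second pair, 1 gene was higher in ATGE_101 than in ATGE_100 and 2 were lower, where 9.9% of all probe sets tested were higher and 6.77% lower. The estimates split evenly, 22 below and 22 above 0, but this depended on the arrays A. Without array A of ATGE_100 alone 41 of 44 estimates were below 0, with a median of -0.18, and the median of every complex was negative. Array A of ATGE_101 was also the lowest of its set, at a median centred level of -0.45. Without arrays A of ATGE_24, ATGE_100 and ATGE_101 together, chosen after seeing the data, the median of the 44 was -0.11. psbB rose from 532, 637 and 594 to 1094, 831 and 950.2 (0.69 ± 0.17, adjusted p = 0.00818), and the arrays did not overlap. The 3' to 5' signal ratio of the actin control probe sets, a sign of RNA quality and labelling, was 3.10 to 4.51 in ATGE_100 and 8.14 to 8.94 in ATGE_101, without overlap, while those of the GAPDH and ubiquitin controls overlapped. Its part in the second pair was not tested. The psbB call was lost without arrays A of ATGE_24, ATGE_100 and ATGE_101 together, an alternative chosen after seeing the data (adjusted p from 0.00365 to 0.126 over all alternatives). ndhG, from 308, 339.6 and 329 to 229.6, 244 and 199 (-0.53 ± 0.17, adjusted p = 0.0332), and petD, from 100.2, 83.9 and 79 to 67.1, 59.7 and 56 (-0.48 ± 0.16, adjusted p = 0.047), were lower. The petD call did not hold when any 1 array of the pair was left out, and the ndhG call without 5 of the 6 in turn (for petD adjusted p from 0.0164 to 0.173 over all alternatives, for ndhG adjusted p from 0.00605 to 0.134 over all alternatives). The count of 3 calls became 1 without array C of ATGE_101 and 2 without array A or B of either set. With arrays scaled to a common 75th percentile, 1 gene was higher and 4 were lower.

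psbB and psbD responded differently in the 2 pairs by a direct test. The sucrose effect of the second pair minus that of the first was called for 2 genes, both higher, where 5.37% of all probe sets tested were higher and 6.62% lower. For psbB the first pair went from 936, 1285 and 909.9 to 674, 669 and 944 (-0.45 ± 0.17, adjusted p = 0.0521), and the difference of effects was 1.14 ± 0.25 (95% interval 0.63 to 1.66, adjusted p = 0.00479). For psbD the second pair went from 1189, 1258 and 1218 to 1611, 1393 and 1346 (0.24 ± 0.14, adjusted p = 0.275), with a difference of effects of 0.76 ± 0.20 (95% interval 0.34 to 1.18, adjusted p = 0.0175). The psbD call was lost without array B of ATGE_96, without array A of ATGE_97 and without arrays A of ATGE_24, ATGE_100 and ATGE_101 together (adjusted p from 0.00803 to 0.0843 over all alternatives), and without array B of ATGE_100 the count of calls rose to 4.

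Sets with the same medium differed as well. Without sucrose, 11 genes were lower in ATGE_100 than in ATGE_96 and 0 higher, where 12.7% of all probe sets tested were lower and 17.7% higher. psbB had the largest difference (-0.81 ± 0.17, adjusted p = 0.0013). petL (ArthCp040) went from 1141, 1313 and 1081 to 558, 872 and 1088 (-0.53 ± 0.16, adjusted p = 0.0168) and psaJ (ArthCp042) from 2018, 2210.1 and 2079 to 981, 1979 and 1567 (-0.53 ± 0.18, adjusted p = 0.0286), with array A of ATGE_100 the lowest in both. Without that array 2 genes were lower in place of 11, without array B of the same set 28 and without array B of ATGE_96 3. The quantile normalized values gave 6. Probe sets outside the plastid genome with a mean over 2000 had a median of -0.28 in this comparison, and the plastid genes over 2000 one of -0.32.

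With sucrose, 5 genes were lower in ATGE_101 than in ATGE_97 and 0 higher, where 17.7% of all probe sets tested were lower and 19.1% higher. petG went from 417, 327 and 441 to 292, 223 and 182 (-0.76 ± 0.16, adjusted p = 0.000979) and petN from 271, 209 and 229 to 183, 163 and 132 (-0.55 ± 0.17, adjusted p = 0.0132), both without overlap. atpI went from 225, 245 and 265 to 201, 172 and 169 (-0.43 ± 0.16, adjusted p = 0.037), a call lost in 5 of 16 alternatives. Without array A of ATGE_97 or array C of ATGE_101 the count was 3. After quantile normalization 4 were lower and psaA, psbB and psbD were called higher, so the split by direction depended on the scaling. The actin 3' to 5' ratio was 8.14 to 8.94 in ATGE_101 and 3.50 to 4.22 in ATGE_97, while those of GAPDH and ubiquitin overlapped. Its part was not tested.

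Few of these genes were called among the 3 plant sets with the same labels. The F test over ATGE_22, ATGE_23 and ATGE_24 called 0 of 44, where 17.4% of all probe sets tested were called, and 3 genes (ndhH, psaC and rbcL) had an unadjusted p under 0.05. Without array C of ATGE_22 the count was 3, and without array A or B of ATGE_23 or of ATGE_24 it was 1. Set ATGE_22 against the mean of ATGE_23 and ATGE_24 gave 1 higher and 0 lower gene, where 7.69% of all probe sets tested were higher and 9.89% lower. This gene was ndhH, at 356, 358 and 274 in ATGE_22, 263, 271 and 186 in ATGE_23 and 238, 251 and 211 in ATGE_24 (0.47 ± 0.14, adjusted p = 0.0191). All arrays of ATGE_22 lay above those of the other 2 sets, and the call was lost without array A or array B of ATGE_22 and in a fit of the plant sets alone (adjusted p from 0.00761 to 0.109 over all alternatives). Without array C of ATGE_22, array B of ATGE_23 or array A of ATGE_24 a further gene was called.

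Genes that lie side by side on the plastid genome shared their course in part. In the region of psbB the order is psbB, psbT, psbN, psbH, petB and petD, and psbN is read from the opposite strand. The differences between ATGE_96 and soil seedlings were -2.08 for psbB, -0.63 for psbT, -1.0 for psbH, -0.37 for petB and -0.56 for petD, with all 5 called lower, and 0.39 for psbN with no call. In plants against soil seedlings psbB, psbT and psbH were lower (-1.24, -0.37 and -0.59) whereas petB had 0.05 and petD -0.29 with no call. In ATGE_100 against plants the 5 genes on the psbB strand were all lower and psbN was higher. Of all 33 adjacent pairs, 17 were both lower there and 5 took opposite calls. In that comparison 30 of the 44 genes were lower and 4 higher. Calls of pairs that are not adjacent were not counted, so these counts do not set neighbours apart from other pairs. Opposite calls were made in 2 pairs in plants against soil seedlings, in 1 in ATGE_96 against soil seedlings and in 0 in each of the other 6 comparisons. Among those 6, only the second sucrose pair had genes called in both directions, so opposite calls could not arise in the rest.

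**Figure D5:**
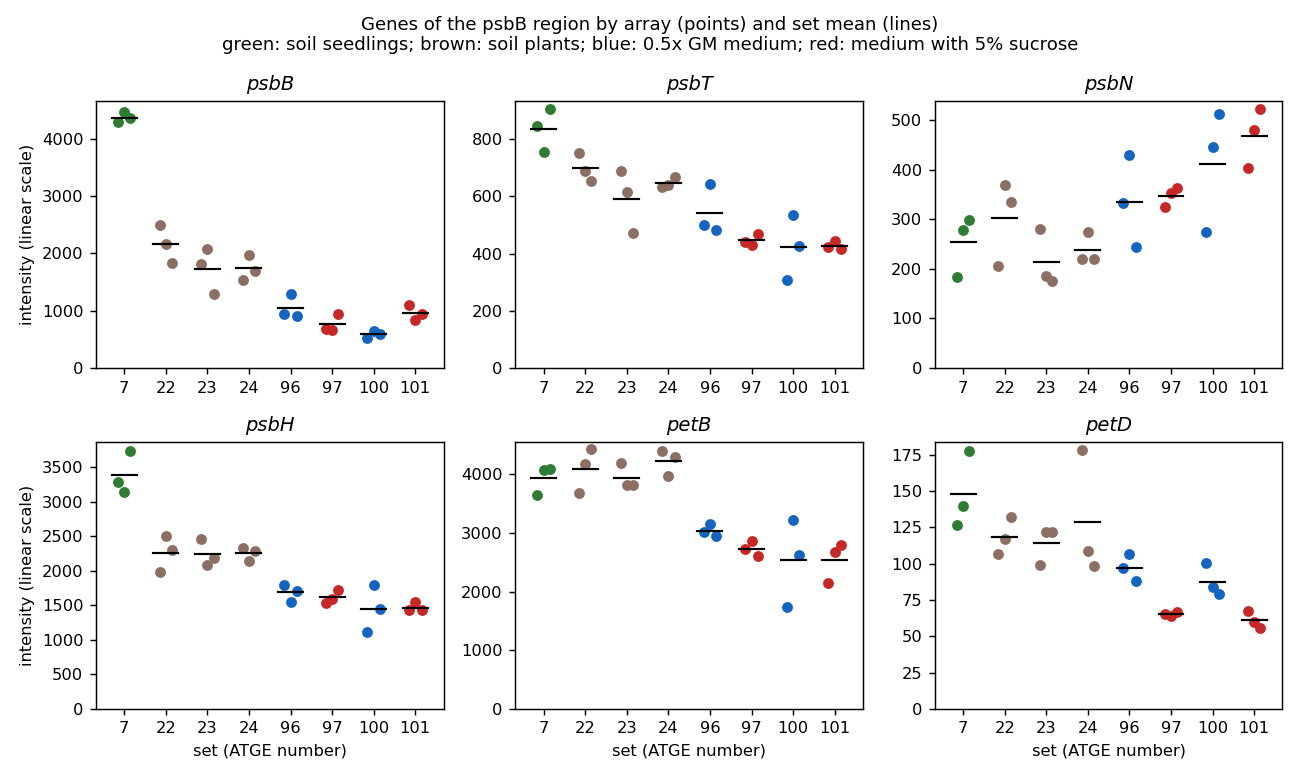
Intensity (linear scale, from 0) of the 6 genes of the psbB region on each array (points) with set means (lines). psbB drops most from ATGE_7 to all other sets, petB is level across the soil sets, and psbN is highest in ATGE_101, where psbH is low.

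Over the 8 set means the 33 adjacent pairs had a median Pearson r of 0.775, from -0.796 for psbN with psbH to 0.998 for atpE with atpB. The 177 pairs of the same complex that are not adjacent had a median of 0.577, and the 736 other pairs 0.638. These figures describe 8 points that share the same arrays and their scaling. Within a complex the median r was 0.86 in photosystem I, 0.74 in the ATP synthase, 0.583 in cytochrome b6f, 0.495 in photosystem II and 0.336 in NDH. Adjacent pairs with low values were ndhK with ndhC (-0.505) and atpB with rbcL (-0.176), which are read in opposite directions. The run atpF, atpH and atpI had 0.982 and 0.962, and psbK with psbI 0.952.

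The other 33 plastid-encoded genes, which serve mainly gene expression, were also mostly lower on medium. In ATGE_96 against soil seedlings 29 of them were lower and 0 higher, with a median of -0.58. Of all probe sets tested 40.4% were lower and 30.4% higher, with a median of -0.12. The 4 rpo genes, for the plastid's own RNA polymerase, had a median of -0.99, with 3 called lower. In plants against soil seedlings 21 of the 33 were lower and 2 higher, where 31.9% of all probe sets tested were lower and 33.3% higher. These are values as deposited, and other scalings were not tried for these 33 genes.

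Few nuclear partners of these complexes could be followed, because the annotation used here ties few of them to a probe set of their own. Of the listed nuclear genes a probe set of its own was found and tested for 2 of 12 photosystem I subunits, 3 of 13 of photosystem II, 2 of 16 light-harvesting proteins, 1 of 8 of cytochrome b6f and its carriers, 1 of 3 of the ATP synthase, 3 of 13 of NDH and 1 of 5 of Rubisco. In ATGE_100 against plants PSBW and PSB27 of photosystem II were lower (-0.71 and -0.62), as were LHCB4.1, a light-harvesting protein (-0.67), ATPC1, the gamma subunit of the ATP synthase (-0.66), PSAE1 and PSAN of photosystem I (-0.64 and -0.58) and NDHL (-0.56). NDHS, the ferredoxin-binding subunit of NDH, was higher (0.50, adjusted p = 0.00175). In this comparison 83% of probe sets outside the plastid genome with a mean intensity over 2000 were lower, with a median of -0.59. After quantile normalization that median was -0.11. Between 100 and 500, where NDHL lies, 38.5% were lower and 31.6% higher. Between 500 and 1000, where NDHS lies, 53.1% were lower and 25.7% higher. The part of brightness in the differences of the nuclear genes was not tested. In plants against soil seedlings PSBW and LHCB4.2 were higher (0.46 and 0.60), while PSBY, ATPC1 and RCA were not called (0.16, -0.003 and -0.09). Of the 3 nuclear NDH genes, NDHN was lower on medium (-0.67) and in plants (-0.44), NDHS was higher in both (0.49 and 0.37) and NDHL was not called (-0.03 and 0.05).

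Of the nuclear genes for plastid transcription and RNA handling 1 of 18 and 1 of 14 could be read. RPOTMP (AT5G15700), a phage-type RNA polymerase, had a mean of 38.3 in soil seedlings and set means of 4.35 to 15.3 elsewhere, near the floor of the arrays. It passed the filter on low values only through the soil seedlings, so no difference is given. CRP1 (AT5G42310), a pentatricopeptide repeat protein needed in maize for the processing and translation of pet transcripts, had a mean of 319 in soil seedlings and 138 to 197 in the other sets. It was lower on medium (-0.86, adjusted p = 1.01e-08) and in plants (-0.70, adjusted p = 1.54e-08). Its sucrose effect in the second pair minus that in the first was called higher (0.37, limma's adjusted p = 0.0471), as were 5.37% of all probe sets tested. The alternatives were not run for CRP1, and a link to the plastid genes was not tested.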

How the data were processed

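Transcript levels were measured on 24 one-colour arrays, 8 sets of 3 that follow the set numbers of the labels. The deposited values are intensities on a linear scale, 1 for each probe set and array, which the authors made with MAS5, per the submitters' processing notes (version not given in the sources used here). The trimmed mean of every array is 100, so the arrays had been scaled. The sources used here do not name the primer used for labelling, and plastid RNAs mostly lack stable poly(A) tails.

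Probe sets were matched to plastid loci through the annotation provided. The order of genes on the plastid genome came from the start positions in a RefSeq gene table. Of 22746 probe sets (64 controls left out) 15471 with an intensity over 22.9 (40th percentile) on at least 3 arrays were tested, as log2(intensity + 6.75), the pseudocount being the 20th percentile, which understates changes of dim genes. limma 3.58.1 in R 4.3.3 fitted 8 set means (lmFit and eBayes, 16 residual and 4.77 prior degrees of freedom, two-sided), with Benjamini-Hochberg adjustment across the probe sets tested. An exact permutation test of 3 against 3 arrays cannot go below p = 0.1. The steps were checked on simulated data. The number of arrays limits the precision.

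In each comparison the 3 highest and 3 lowest called members were named with all arrays, together with the member of smallest F test p in each complex and 10 well-known genes. The members, gene lists and tests were chosen with earlier results of these data known. Alternatives were the pseudocount divided by and multiplied by 4, quantile normalization, scaling to a common 75th percentile, a filter at 61.6 or none, a block for the replicate letter, limma's trend and robust options, a fit of only the sets compared and each array left out. Leaving out arrays A of ATGE_24, ATGE_100 and ATGE_101 together was added after seeing the data. Sequences and coordinates are not given here.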

Additional observations from a re-analysis of the deposited data

Results flagged for a closer look

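The effect of sucrose differed between the 2 pairs of medium sets for 2 of the 44 genes, by limma's test of the difference itself over all arrays. Both were called higher, where 5.37% of all probe sets tested were higher and 6.62% lower, so the count does not exceed the background. For psbB the sucrose effect of the second pair (ATGE_101 against ATGE_100) exceeded that of the first (ATGE_97 against ATGE_96) by 1.14 on the log2 scale (adjusted p = 0.00479): in the second pair all sucrose arrays lay above those without sucrose, and in the first the estimate was -0.45 with overlapping arrays. For psbD it exceeded it by 0.76 (adjusted p = 0.0175). No other gene of the 44 was called, 5 had an unadjusted p under 0.05, and 33 of 44 estimates were above 0. The lowest array in ATGE_100 for the 44 genes together was A, at a median centred level of -0.59. Without it both calls stayed, but 21 of 44 estimates were above 0 in place of 33, and the median of the 44 went from 0.15 to -0.01. Without arrays A of ATGE_24, ATGE_100 and ATGE_101 together that median was 0.07. The psbB call held in all 22 alternatives, and the psbD call did not hold in 3: without array B of ATGE_96, without array A of ATGE_97, and without arrays A of ATGE_24, ATGE_100 and ATGE_101 together (adjusted p from 0.00803 to 0.0843 over all alternatives).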

How the results depend on the processing

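Calls of the 44 genes depended most on the scaling and on single arrays. After quantile normalization the counts became 17 for ATGE_96 against ATGE_7, 6 for ATGE_100 against ATGE_96, 4 for the difference of sucrose effects and 1 for the F test over plant sets. A common 75th percentile gave 5 in the second sucrose pair, 17 for ATGE_100 against ATGE_96, 2 for ATGE_22 against the other plant sets and 1 for their F test. Without a filter the first and second sucrose pairs had 3 and 1, and ATGE_101 against ATGE_97 had 3. With only the sets compared in the fit, ATGE_100 against ATGE_96 had 6, ATGE_101 against ATGE_97 had 8 and ATGE_22 against the other plant sets 0. Without the 3 arrays A of ATGE_24, ATGE_100 and ATGE_101, chosen after seeing the data, the difference of sucrose effects had 1, ATGE_100 against ATGE_96 had 4, ATGE_22 against the other plant sets 2 and their F test 1. The pair of results from plant sets were also 2 and 1 with 4 times the pseudocount, with the stricter filter, with trend and robust fitting and with the replicate block. Arrays were not paired by replicate letter, since none of the pairs of sets examined had every correlation of same-letter deviations over 0.1. Not all pairs of sets were examined. Arrays A of ATGE_100 and ATGE_101 were alike in a low spike-in signal (bioB 29.2 and 38.5, against 67.7 to 78.0 on their arrays B and C). What these arrays share was not tested. The replicate block gave 5 in the first sucrose pair and 10 for ATGE_100 against ATGE_96. Leaving out 1 array in turn, the counts ran from 1 to 5 in the first sucrose pair, 1 to 4 in the second, 1 to 4 for their difference, 2 to 28 for ATGE_100 against ATGE_96, 3 to 5 for ATGE_101 against ATGE_97, 18 to 24 for ATGE_96 against ATGE_7, 19 to 23 for plants against ATGE_7, 30 to 37 for ATGE_100 against plants, 0 to 2 for ATGE_22, and 41 to 42 and 0 to 3 for the F tests over all sets and over plant sets. The F test over all sets called 32 after quantile normalization. The one reversed estimate of a called gene was atpH in ATGE_100 against plants, at -0.30 with the arrays as deposited and 0.0939 after quantile normalization with no call. Among single genes 2926 results kept their side of the threshold, 226 lost a call and 36 gained one. A change of sign in a gene called in neither fit was not counted as a reversal. The cause of the changes was not tested. Dim probe sets such as ndhF and ndhB limit what small changes can show.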
